A study of Mus musculus with 4 samples.

Results

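CTCF peaks next to the centromeres of the mouse autosomes were taken as the peaks on chromosomes 1 to 19 whose summit lay below 8 Mb in the mm10 genome build. There were 1735 such peaks among the 51871 of the deposited list, or 3.45% of the peaks on these chromosomes. The remaining 48532 autosomal peaks, from 8 Mb to the end of each chromosome, served as the comparison. The list came from chromatin immunoprecipitation and sequencing (ChIP-seq) of CTCF in testes of F1 mice of a B6 by CAST cross, with 2 immunoprecipitated (IP) samples and 2 input samples. The labels give neither age nor genotype beyond the cross, and the tissue was not sorted, so the peaks cannot be assigned to germ cells or to somatic cells. Each peak has 1 merged value, which gives no spread between animals, and read depth is unknown.

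CTCF is a zinc-finger protein that binds a long DNA motif, halts loop extrusion by cohesin and so helps to set the ends of chromatin loops. Mouse chromosomes are acrocentric: the centromere sits at one tip, embedded in long arrays of satellite repeats packed as heterochromatin. These arrays are missing from mm10, which fills the first 3 Mb of each autosome with unknown bases, so that the region studied was the 5 Mb of assembled sequence closest to the centromere. No autosomal summit lay below 3 Mb (0 of 50267). In meiosis, crossovers are rare close to centromeres, and sister chromatids stay joined there by cohesin until the second division.

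Sequence could be examined only under summits at gene starts, which make up 155 of the 1735 peaks. RefSeq promoter sequences (250 bases before to 50 bases after a transcription start, build GRCm38.p6, whose chromosome coordinates equal those of mm10) were found for 696 of the 869 protein-coding genes that start in the region. They were searched on both strands for the letters CC, any 3 bases, AG, any 2 bases and GGC, the core of the CTCF consensus. Of all 32817 promoter windows, 8.61% held these letters. A summit lay inside 188 of the 1269 promoter windows of the region (14.8%), where 13.4% of all autosomal windows held one. Within the region, the letters stood in 61 of 188 promoter windows with a summit inside (32.4%, exact 95% interval 25.8 to 39.6) and in 78 of 1081 without one (7.22%, interval 5.75 to 8.92). In the rest of the autosomes the shares were 23.0% and 6.43%. Promoter windows can overlap: the 188 windows held 155 summits, 50 of them in windows with the letters. The intervals treat windows as separate and do not allow for this. The centre of the match lay a median of 23 bp from the summit in the region, against 22 bp in the rest, and within 50 bp in 42 of the 61 promoter windows. The 6 promoters below were printed, after the values were seen, as those of highest fold with a match within 50 bp of the summit. Capitals mark the match, which in Cluap1 is the reverse complement of the letters, and each sequence reads in the direction of its gene and ends before the transcription start.
Nf2: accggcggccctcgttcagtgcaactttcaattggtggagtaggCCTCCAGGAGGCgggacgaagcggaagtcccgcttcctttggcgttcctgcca
Fam171a1: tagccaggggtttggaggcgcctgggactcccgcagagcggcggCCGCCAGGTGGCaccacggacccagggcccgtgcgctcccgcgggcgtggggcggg
Cluap1: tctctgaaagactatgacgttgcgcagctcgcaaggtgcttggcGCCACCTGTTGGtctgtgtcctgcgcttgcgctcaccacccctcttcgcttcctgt
Dab2: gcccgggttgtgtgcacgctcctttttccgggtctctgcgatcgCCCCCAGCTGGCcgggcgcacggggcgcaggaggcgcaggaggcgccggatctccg
Ndufv1: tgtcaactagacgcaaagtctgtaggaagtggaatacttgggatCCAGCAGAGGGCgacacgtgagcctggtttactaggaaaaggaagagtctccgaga
Rbm48: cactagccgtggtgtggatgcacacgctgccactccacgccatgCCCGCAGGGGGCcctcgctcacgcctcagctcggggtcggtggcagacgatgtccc

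Nf2 encodes the tumour suppressor merlin. Its stretch lies at chr11:4849545-4849641 on the minus strand, under a summit with a fold enrichment of 14.2. Fold enrichment is the authors' ratio of IP signal at the summit to background. The stretch of Fam171a1 is chr2:3118240-3118339 (plus strand, fold 11.9). The stretch of Cluap1, a gene of ciliary transport, is chr16:3908902-3909001 (plus strand, fold 11.6). Its summit also lay in the promoter window of 1700037C18Rik, which is read in the opposite direction. The stretch of Dab2, which encodes an endocytic adaptor, is chr15:6386569-6386668 (plus strand, fold 11.1). That of Ndufv1, a subunit gene of respiratory complex I, is chr19:4012883-4012982 (minus strand, fold 11.01). That of Rbm48 is chr5:3596590-3596689 (minus strand, fold 10.9). In these 6 promoters, chosen for a match within 50 bp of the summit, the match centre was 6 to 24 bp from it.

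Among the promoter windows found, the highest fold at a summit of the region, 17.8, belonged to Selenom, which encodes a selenoprotein of the endoplasmic reticulum. The peak at an end of Tfap4, with a fold of 18.1, lay in none of these windows. The Selenom window held no exact match to the letters. The 100 bases over the Selenom summit, at chr11:3514584-3514683 on the plus strand, are printed without capitals for comparison. They hold gccctctggtga, which would match the reverse complement of the letters but for its last base.
Selenom: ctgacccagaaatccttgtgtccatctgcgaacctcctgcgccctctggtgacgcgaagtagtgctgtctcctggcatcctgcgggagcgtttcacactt

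A summit in a promoter window was found for 155 of the 1735 peaks (8.93%), against 7.03% of the peaks in the rest of the autosomes. Counted by promoter window, 14.8% held a summit in the region and 13.3% in the rest. Of the 155 summits, 20 (12.9%) lay in windows of genes read in opposite directions, against 10.7% in the rest. Such shared promoters include that of Hspa14 and Cdnf on chromosome 2, with a fold of 13.2, and that of Xab2, a repair factor gene, and Pet100 on chromosome 8, also with a fold of 13.2. The median fold was 6.73 for the 50 summits whose promoter window held the letters and 5.37 for the other 105.

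Peak density near the centromere differed widely between chromosomes. The region held 18.3 ± 13.7 peaks per Mb and the rest 21.1 ± 4.21 peaks per Mb (SD, n = 19 chromosomes). These spreads are not alike in kind, since the rest is an average over a far longer stretch, and the equally long last 5 Mb of the chromosomes had an SD of 18.3. The region ranged from 3.80 peaks per Mb on chromosome 3 to 63.4 on chromosome 19, and the rest from 15.6 to 31.6. Chromosomes 19, 11, 7 and 17 together held 784 of the 1735 peaks (45.2%), and chromosome 19 alone held 317. Density was lower next to the centromere than in the rest on 13 of 19 chromosomes and higher on 6.

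Chromosomes 3 and 9 had the emptiest regions relative to their own rest, at 3.80 against 15.6 peaks per Mb (a ratio of 0.244) and 6.60 against 24.8 peaks per Mb (0.266). Chromosome 5, with 10.8 against 27.1 peaks per Mb, and chromosome 4, with 10 against 23.0, followed. At the other end, chromosome 19 had 63.4 peaks per Mb in the region and 22.7 in the rest (2.79). Chromosomes 16 (1.22), 7 (1.21), 11 (1.18), 17 (1.08) and 18 (1.02) were also above 1. The mean log2 ratio over the 19 chromosomes was −0.48 ± 0.85 (SD), a ratio of 0.717, and did not pass the test (exact two-sided sign-flip permutation test over chromosomes, p = 0.0246, adjusted p = 0.0862 over the 7 measures compared). Without chromosome 19 the log2 ratio was −0.59, lower on all but 5 of 18 chromosomes, with an adjusted permutation p of 0.00879. This test sets 1 stretch against a whole chromosome and passes too often on shifted peaks. Against the median 5 Mb stretch of the rest, also without chromosome 19, the log2 ratio was −0.39 (permutation, adjusted p = 0.0663). Over all alternatives the adjusted p ran from 0.00879 to 0.505.

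**Figure D1:**
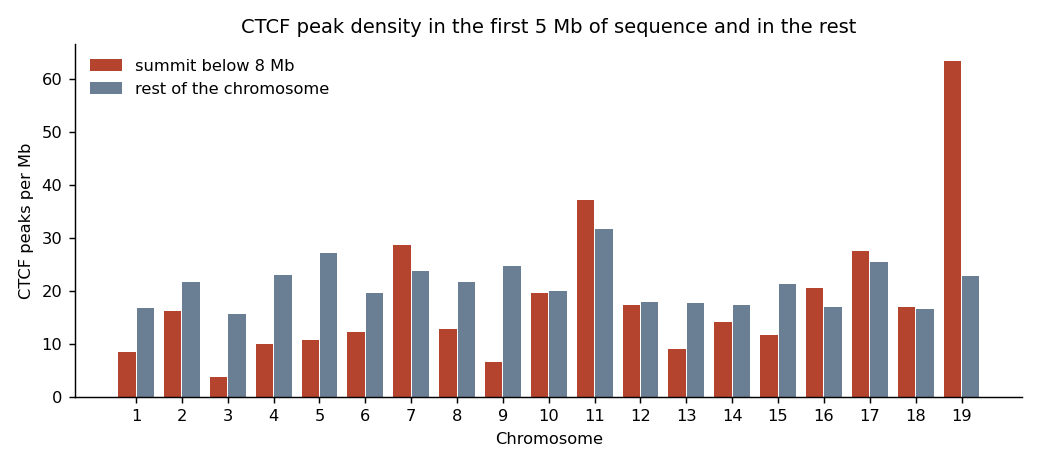
CTCF peaks per Mb on each autosome, for summits below 8 Mb (left bars) and for the rest of the same chromosome (right bars). The region on chromosome 19 stands at 63.4 and that on chromosome 3 at 3.80, while the right bars stay between 15.6 and 31.6.

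Set against single stretches of its own length, the region was neither the sparsest nor the densest part of most chromosomes. Each chromosome was divided into consecutive stretches of 5 Mb from 3 Mb on. The first stretch was the densest on chromosome 19 (0 of the other stretches were denser) and the sparsest on none. It had a median percentile of 47.1 among the other stretches of its chromosome, below the middle on 11 chromosomes and above it on 7. The lowest percentiles were 3.33 on chromosome 3, 4.35 on chromosome 9 and 9.09 on chromosome 13. Against the median of the other stretches, the mean log2 density ratio was −0.29 ± 0.85 (SD, n = 19; sign-flip permutation, adjusted p = 0.216).

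Gene content of the region also differed widely between chromosomes. The region held 9.15 ± 8.67 protein-coding genes per Mb and the rest 8.57 ± 2.36 (SD, n = 19), with fewer genes per Mb in the region on 14 of 19 chromosomes. Chromosome 19 had 183 coding genes in these 5 Mb and chromosome 3 had 7. Per 100 coding genes, the region had 235 ± 85.1 peaks and the rest 252 ± 33.0 (SD, n = 19; mean log2 ratio −0.19 ± 0.56, permutation p = 0.158, adjusted p = 0.221). Over all alternatives the adjusted p ran from 0.0123 to 0.897. It passed with all annotated genes (−0.35) and against the median 5 Mb stretch (−0.41, lower on 14 of 19 chromosomes). The latter reference was chosen after the data were seen. The lowest value, 88.8 peaks per 100 genes, was on chromosome 14, and the highest, 405 and 373, were on chromosomes 18 and 17. The part of gene content in the density values was not tested.

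Within the region, the mean was 21.6 ± 14.4 peaks in the first Mb of sequence, then 21.5 ± 17.4, 19.1 ± 20.4 and 17.4 ± 18.5, and 11.7 ± 9.49 in the fifth (SD, n = 19 chromosomes). The first 2 Mb held 21.6 peaks per Mb and the last 2 Mb held 14.6, higher in the first on 12 of 19 chromosomes. These stretches were chosen from the means themselves, so the difference is a description. Coding genes numbered 11.4 and 6.82 per Mb in the same stretches. Past 8 Mb, means from the sixth to the sixteenth Mb of sequence stayed between 10.5 and 16.6 peaks per Mb. The region had 18.3 ± 13.7 peaks per Mb, against 13.4 ± 5.10 in the 10 Mb that follow it, and was higher on 11 of 19 chromosomes (mean log2 ratio 0.25 ± 0.82, sign-flip permutation, adjusted p = 0.505). Against the opposite tip of the chromosome, the last 5 Mb, the region had 18.3 ± 13.7 and the tip 31.1 ± 18.3 peaks per Mb, lower in the region on 15 of 19 chromosomes (mean log2 ratio −0.70 ± 1.47, permutation, adjusted p = 0.128).

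**Figure D2:**
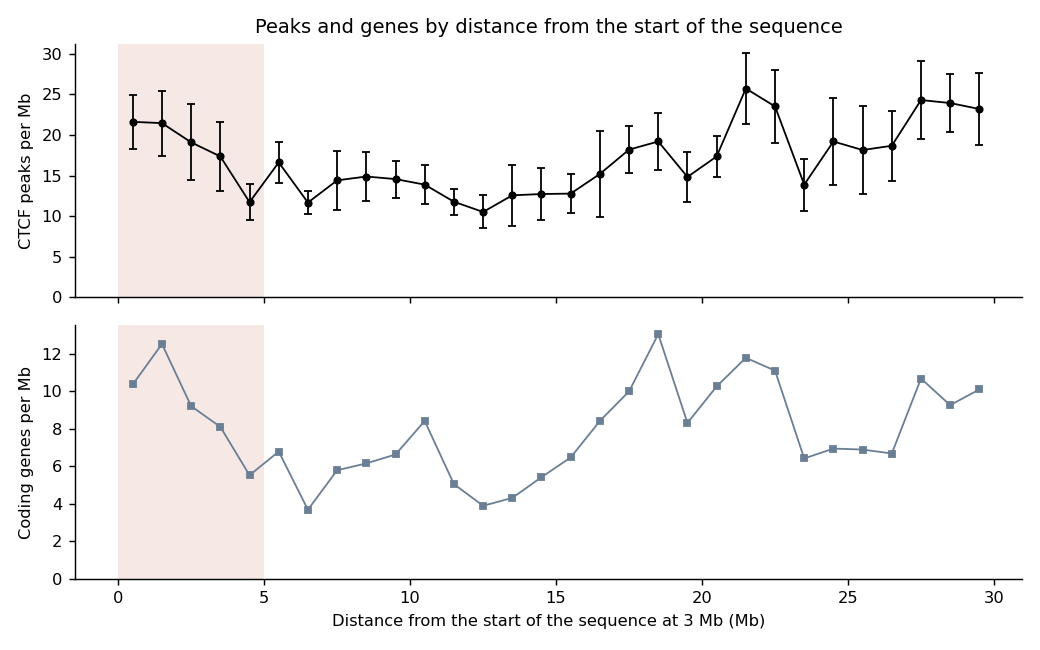
Mean CTCF peaks per Mb over 19 autosomes (upper panel, bars show the standard error) and mean protein-coding genes per Mb (lower panel) by distance from the start of the assembled sequence, in steps of 1 Mb. The shaded first 5 Mb begin at 21.6 peaks per Mb and end at 11.7, and genes are also fewest in the fifth of these steps.

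The median distance between neighbouring summits was 39.0 ± 35.4 kb in the region and 18.9 ± 3.80 kb in the rest (SD, n = 19), longer on 16 of 19 chromosomes (mean log2 ratio 0.73 ± 0.88, sign-flip permutation p = 0.00154, adjusted p = 0.0108). The longest median was 170 kb, on chromosome 3, and the shortest 9.36 kb, on chromosome 19. This test passes too often on shifted peaks, and the call was lost against each stretch of limited length. Against the median of the 5 Mb stretches of the rest, the distance was longer on 12 of 19 chromosomes (mean log2 ratio 0.38, permutation, adjusted p = 0.178). Against the next 10 Mb it was 39.0 ± 35.4 kb in the region and 32.3 ± 13.2 kb beyond it (0.051, permutation, adjusted p = 0.801), and against the last 5 Mb the log2 ratio was 0.62 (permutation, adjusted p = 0.128). Over all alternatives the adjusted p ran from 0.00101 to 0.801. The largest stretch without a summit inside the region was 1975 kb on chromosome 5, followed by 1084 kb on chromosome 13 and 1052 kb on chromosome 8. The smallest such maximum was 152 kb, on chromosome 19.

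**Figure D3:**
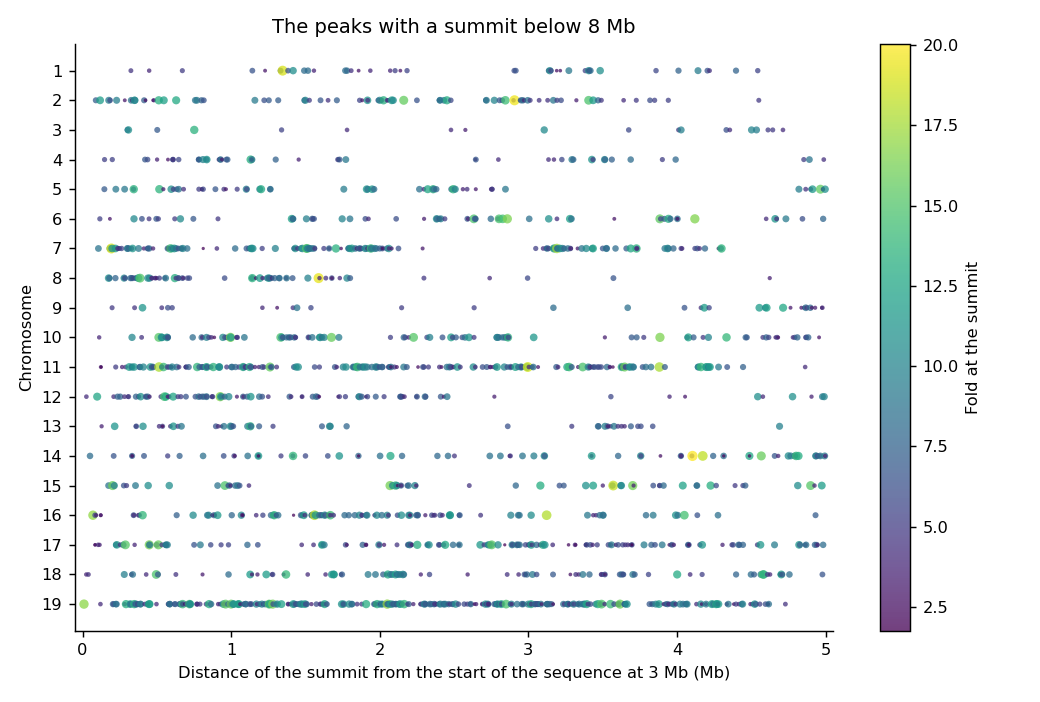
The 1735 peaks by chromosome (rows) and distance of the summit from the start of the assembled sequence in Mb, with size and colour giving the fold at the summit. Rows 3 and 9 hold 19 and 33 peaks, row 19 holds 317, and row 5 has a gap of 1975 kb.

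By fold, called peaks next to the centromere were about as strong as elsewhere. Their fold ranged from 1.75 to 20.04, with a median of 6.81 and the middle 50% between 4.66 and 9.17, against a median of 6.83 in the rest. Folds of 10 or more were seen for 337 members (19.4%), where 19.6% of all autosomal peaks had them. By chromosome, the median fold was 6.76 ± 0.754 in the region and 6.83 ± 0.107 in the rest (SD, n = 19; mean log2 ratio −0.024 ± 0.17, sign-flip permutation, adjusted p = 0.543). The region was higher on 9 chromosomes and lower on 10. The medians of the region rest on 19 to 317 peaks a chromosome and those of the rest on 1211 or more, so their spreads are not alike. The region on chromosome 15 had the highest median fold, 8.14 against 6.65 in the rest, and 34.5% of its peaks reached a fold of 10. The region on chromosome 9 had the lowest, 5.21 against 6.97, followed by chromosome 1 with 5.78 against 6.94 and chromosome 3 with 5.87 against 6.80.

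The −log10 q, the authors' second measure of strength, which also grows with read depth, had a median by chromosome of 26.4 ± 9.44 in the region and 30.1 ± 1.29 in the rest (SD, n = 19). It was lower in the region on 12 chromosomes, higher on 6 and equal on 1 (mean log2 ratio −0.28 ± 0.54, permutation p = 0.0376, adjusted p = 0.0877). Without chromosome 15 the log2 ratio was −0.33 and the adjusted permutation p 0.0449. Over all alternatives the adjusted p ran from 0.0449 to 0.576. At a fold of 4 to 6 the median −log10 q was 10.8 in the region and 11.4 in the rest. At a fold of 6 to 8 it was 28.2 in the region and 30.6 in the rest, and at 8 to 10 it was 44.1 in the region and 45.1 in the rest.

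Width showed a similar picture. The median width by chromosome was 502 ± 105 bp in the region and 535 ± 21.3 bp in the rest (SD, n = 19), narrower on 11 chromosomes (mean log2 ratio −0.12 ± 0.29, sign-flip permutation, adjusted p = 0.160). With means in place of medians the log2 ratio was −0.14 and the test was passed (permutation, adjusted p = 0.00539). Over all alternatives the adjusted p ran from 0.00539 to 0.759. The narrowest regions were those of chromosomes 1 (334 against 525 bp) and 9 (349 against 544 bp). The widest were those of chromosomes 6 (670 against 526 bp) and 11 (663 against 568 bp).

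**Figure D4:**
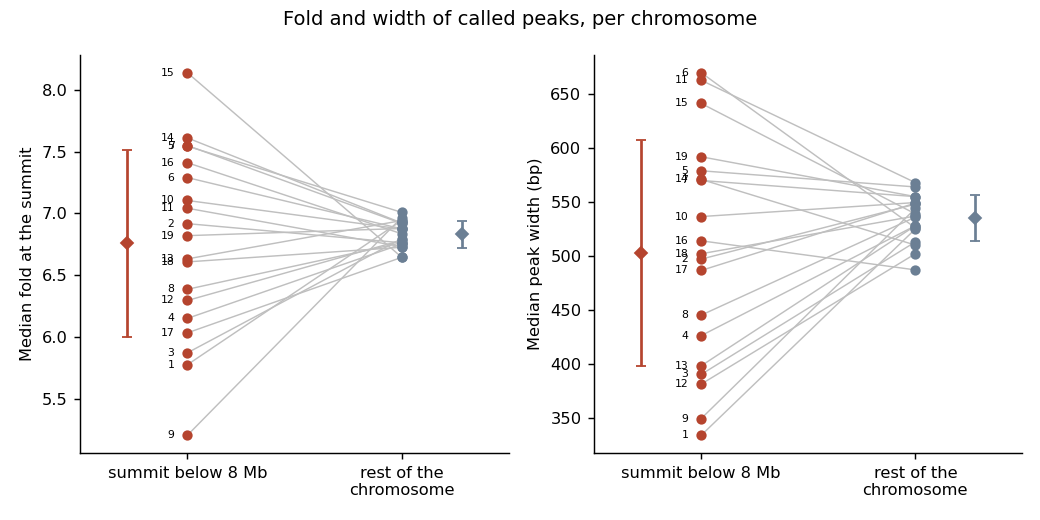
Median fold (left panel) and median width in bp (right panel) of the peaks of each chromosome, for summits below 8 Mb and for the rest of the same chromosome, joined by lines. Numbers name chromosomes and diamonds give the mean with its SD; the left axes start above 0. Fold in the region averages 6.76 against 6.83 and width 502 against 535 bp, with a wider spread in the region.

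Of the highest peaks of the 19 chromosomes, 2 lay within 1 kb of a coding gene end, a place held by 16.5% of all autosomal peaks. Of the 5 highest members, the first (fold 20.04) covered chromosome 14 from 7104155 to 7105091 inside Gm3696. The second (fold 19.6) covered chromosome 2 from 5906385 to 5907315 inside Dhtkd1, a gene of mitochondrial lysine breakdown. The third, with a fold of 19.4 and the highest −log10 q of all members, 105, covered chromosome 8 from 4587934 to 4589213, 24.7 kb from the zinc-finger gene Zfp958. The fourth, with a fold of 19.03, covered chromosome 7 from 3193671 to 3194765, 24.5 kb from the innate immunity gene Nlrp12 and 194 kb from the start of the sequence. The fifth (fold 18.9) covered chromosome 1 from 4345935 to 4346939 inside Rp1, a gene of the photoreceptor cilium.

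Among the highest peaks of the other chromosomes, 3 lay within 2.5 kb of the end of a gene. That of chromosome 16 had a fold of 18.1 with its summit at 4560768, 6 bp from an end of Tfap4, which encodes a transcription factor. That of chromosome 19 had a fold of 16.96 with its summit at 5050405, 0.406 kb from an end of Rin1, a gene of Ras signalling. That of chromosome 4 had a fold of 13.3 with its summit at 4131242, 2.29 kb from the enkephalin gene Penk. Others lay inside genes: Camk2b on chromosome 11 (summit 5996126, fold 18.8), Fyb on chromosome 15 (6571066, fold 18.5) and Mthfd1l on chromosome 10 (3995461, fold 16.4). Tiam2 on chromosome 17 (3448921, fold 16.2) and Steap4 on chromosome 5 (7965473, fold 15.6) held such peaks too. That of chromosome 12 had a fold of 16.6 with its summit at 3926294, 11.9 kb from the DNA methyltransferase gene Dnmt3a. Those of chromosome 6 (16.6), chromosome 18 (14.8), chromosome 3 (13.5), chromosome 13 (13.3) and chromosome 9 (12.6) lay outside genes, nearest to Sdhaf3, Bambi, Hnf4g, Akr1c18 and Mmp7.

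The first peak of each chromosome lay between 9.66 and 325 kb from the start of the assembled sequence, at a median of 116 kb. The closest was on chromosome 19, from 3009286 to 3010093, with a fold of 16.8. That on chromosome 16, from 3069693 to 3070336, 70.05 kb from the start, had a fold of 17.03 and lay 522 kb from the nearest coding gene, the olfactory receptor gene Olfr161. The first peak of chromosome 8 lay inside the insulin receptor gene Insr with a fold of 11.1. The other 16 first peaks had folds from 1.77, on chromosome 17, to 8.81, on chromosome 7. The first peak of chromosome 1 was the farthest from the start, inside Xkr4 with a fold of 4.64.

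The 5 widest members were 2568 to 2851 bp wide, and none was among the strongest. The widest covered chromosome 17 from 7862840 to 7865690, 36.6 kb from Fndc1, with a fold of 4.93. Next came peaks near Mrpl15 on chromosome 1 (2691 bp, fold 8.28), inside Ap5b1 on chromosome 19 (2620 bp, fold 5.85), 89 bp from an end of Rnf215 on chromosome 11 (2579 bp, fold 7.36) and inside Gm29721 on chromosome 17 (2568 bp, fold 4.46). At the 8 Mb limit, the last summit inside was at 7997610 on chromosome 14 (fold 3.74) and the first outside at 8004808 on chromosome 9, near Yap1 (fold 8.17). The last members of the 19 chromosomes had a median fold of 5.61 and the first peaks outside had 7.41.

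In the first 5 Mb of chromosome 14, distances of 65 to 90 kb between neighbouring summits were frequent. This sequence holds 80 annotated coding genes, 71 of them named only by Gm numbers. The stretch is known for the mouse alpha-takusan family, many near-identical gene copies in tandem. It held 71 peaks, and 21 of the 70 distances between neighbouring summits were 65 to 90 kb (30%). The same distances made up 4.92% of those in the regions of the other 18 chromosomes and 6.49% in the rest of chromosome 14. This range of distances was chosen after the values were seen, so the shares are a description. The median distance was 70.2 kb on this stretch, 18.9 kb in the other 18 regions and 21.6 kb in the rest of chromosome 14. The shares are therefore not compared at like spacing. With summits under 5 kb apart joined, 51 sites remained, with a highest fold per site of 2.66 to 20.04 and a median of 8.46. A pair of peaks shared nearly the same values: summits at 7104435 and 7173569 had folds of 20.04 and 18.3, widths of 937 and 933 bp and the same −log10 q of 96.6. They lay 1.82 and 1.81 kb from the end of a coding gene.

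Many summits on this stretch lay close to gene ends, more of them beyond 1 kb than within it. Of the 71 summits, 16 (22.5%) lay within 1 kb of a coding gene end, where 20.5% of all 1735 members did. Within 2.5 kb lay 46 (64.8%), against 29.9% in the other 18 regions. The stretch also held 16 coding genes per Mb, against a mean of 9.15 over the 19 regions. The shares are not compared at like gene density. Of the 80 genes, 14 (17.5%) had a summit within 1 kb of an end. At a fold of 4 to 6 the median −log10 q was 11.1 in the region of chromosome 14 (13 peaks) and 11.01 in the rest of the chromosome (521 peaks). In the region of chromosome 14 a fold of 6 to 8 went with a median −log10 q of 21.96 (16 peaks), against 29.7 in the rest of the chromosome (454 peaks). At a fold of 8 to 10 the values were 31.1 (16 peaks) and 43.2 (368 peaks). Whether reads could be placed uniquely in these copies was not tested.

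**Figure D5:**
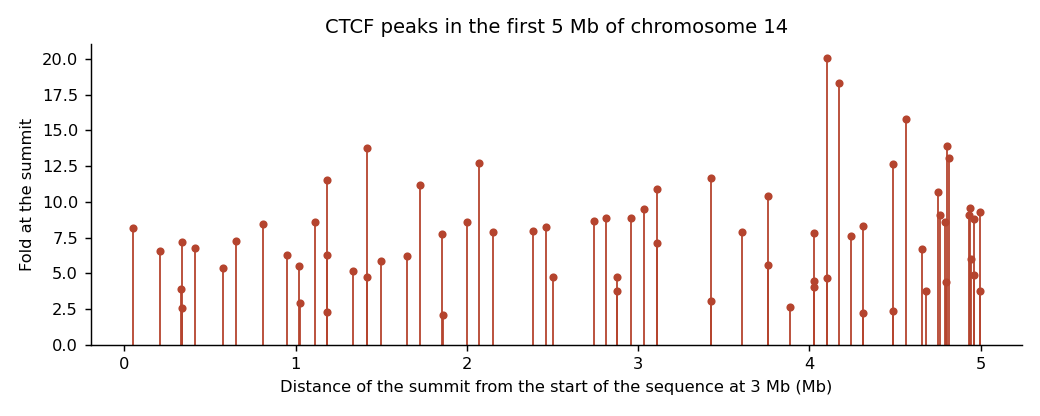
Fold at each of the 71 summits in the first 5 Mb of sequence of chromosome 14 by distance from the start of that sequence in Mb. Of the 70 distances between neighbours, 21 are 65 to 90 kb, and the highest pair reaches folds of 20.04 and 18.3.

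Genes near the centromere had a CTCF summit at their ends about as often as other genes. A summit within 1 kb of either annotated end was found for 369 of the 869 coding genes (42.5%, exact 95% interval 39.1 to 45.8), where 40.3% of all autosomal coding genes had one. Averaged by chromosome, the share of genes was 39.2 ± 12.4% in the region and 40.6 ± 4.25% in the rest (SD, n = 19; exact two-sided sign-flip permutation p = 0.622). Chromosome 19 was highest, with 111 of 183 genes (60.7%), against 40.6% in its rest. Chromosome 3 was lowest, with 1 of 7 genes. Chromosome 14 followed with 14 of 80 (17.5%) against 37.0%. Without chromosome 19 the share of the region was 37.6%.

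Counted by summit, 356 of the 1735 peaks (20.5%) lay at a gene end, where 16.5% of all autosomal peaks did. Away from gene ends, summits within genes made up 42.7% of the peaks in the region and 42.4% in the rest of the autosomes. Intergenic summits made up 36.8% in the region and 41.3% in the rest. By chromosome the share at gene ends was 17.5 ± 6.90% in the region and 16.2 ± 1.88% in the rest (SD, n = 19; mean difference 1.23 ± 6.91 percentage points, sign-flip permutation, adjusted p = 0.527). Chromosome 19, with 34.7% in the region and 17.2% in the rest, had the highest share. Without chromosome 19 the mean difference from the rest was 0.33 percentage points (permutation, adjusted p = 0.813). Against the median of the 5 Mb stretches of the rest, on all 19 chromosomes, the difference was 3.87 percentage points (permutation, adjusted p = 0.0490). That reference was chosen after the data were seen. Over all alternatives the adjusted p ran from 0.0490 to 0.897. Members at gene ends had a median fold of 5.62, those inside genes 7.01 and those outside 7.09. The corresponding values of the rest were 5.56, 6.92 and 7.20.

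Gene families were represented by small numbers, often of neighbouring genes. Of 23 vomeronasal receptor genes in the region, 1 carried a summit at an end (4.35%, exact 95% interval 0.110 to 21.9), against 0.610% in the rest. Of 10 olfactory receptor genes 2 did (20%, interval 2.52 to 55.6), against 1.46% in the rest. Of 23 zinc-finger (Zfp) genes 11 were bound (47.8%, interval 26.8 to 69.4), against 40.3% in the rest. Of 3 Nlrp genes, which encode innate immune and oocyte proteins, 1 was bound (interval 0.840 to 90.6), against 13.3% in the rest. The 1 histone gene was bound too (interval 2.5 to 100%), against 52.2% in the rest. There was no keratin gene in the region.

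Of 30 well-known genes listed for the region, 28 started in it, and 15 of these 28 had a gene-end summit, where 42.5% of coding genes in the region and 40.3% on all autosomes did. The 28 include the long noncoding RNA genes Malat1, with such a summit, and Neat1, without one. The shares beside them are of coding genes only. Receptor genes included Ghr (growth hormone receptor, fold 10.7), Insr (10.1) and Esr1 (oestrogen receptor alpha, 8.01), each with a summit within 164 bp of an end. The Wnt co-receptor gene Lrp5 had a fold of 2.25 at its end, but 10 summits inside, up to 13.96. Genes of chromatin and growth control included Nf2 (14.2), Arid1b (a subunit of the BAF remodelling complex, 9.84), Men1 (menin, 9.35), Slx4 (a scaffold of DNA repair nucleases, 7.78) and Crebbp (a histone acetyltransferase, 5.53). Metabolic and trafficking genes included Cpt1a (fatty acid import into mitochondria, 8.14), Ehd1 (endocytic recycling, 4.66), Mpp7 (3.90) and the autophagy gene Rb1cc1 (2.54). The long noncoding RNA gene Malat1 had a fold of 5.47, 941 bp from an end.

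Several of the 13 listed genes without a gene-end summit had strong peaks inside them. Rp1 held 5 summits with folds up to 18.9, Lif (a cytokine gene) 4 up to 15.7 and Syne1 (a nuclear envelope linker) 11 up to 15.2. Dnmt3a held 7, up to 9.21, and the summit nearest to an end of the gene was 4.91 kb from that end. Ptger4 held 1 of 10.1, Sox17, an endoderm transcription factor gene, 1 of 8.14, and Pomc, the precursor of several peptide hormones, 1 of 7.26. Osm, Neat1, Majin and Rad9a held no summit. Ppp1r12c and Pnpla6 each held 1, of 3.34 and 5.20.

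Genes of the germ line in the region were looked up in a list drawn from the annotation. Of 10, 5 had a gene-end summit, near the 42.5% of all coding genes in the region. They were Cdca5, which encodes the cohesin protector sororin (8.81), Crem, a spermatid transcription factor gene (8.58), Tesmin (8.38), Slx4 (7.78) and Suv39h2, a testis-rich histone H3 lysine methyltransferase (2.53). Hormad2, a gene of the meiotic chromosome axis, held 2 summits inside. The stronger, with a fold of 10.5, was also the nearest to an end, at 4.36 kb. Meig1, needed for spermiogenesis, held 1 summit inside with a fold of 7.05. The nearest summit to Mos, a kinase gene of meiotic maturation, was 34.9 kb from an end, and that to Majin, which ties meiotic telomeres to the nuclear envelope, 11.7 kb. That to the checkpoint gene Rad9a was 3.18 kb away.

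Of 9 genes for chromatin, centromere and replication proteins, 3 had a gene-end summit, against the same 42.5%. Those were Mcm10, a replication factor gene (5.74), Morc2a, a silencing factor gene (4.40), and Kmt5c, a histone H4 lysine methyltransferase of pericentric heterochromatin (2.43). Its paralog Kmt5b held 4 summits inside, up to 4.96, and the histone demethylase gene Kdm2a held 4, up to 12.1. Tasor2 had a summit 1.69 kb from an end with a fold of 11.3. That summit lay inside a promoter window of Tasor2, so the 1 kb rule missed a peak at an annotated start. Cenpo, a kinetochore gene, held 1 summit of 6.61. The summit nearest to an end of Sfi1, a centrosome gene, was 7.40 kb away and was the weakest member of all, with a fold of 1.75.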

How the data were processed

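The data were CTCF ChIP-seq of mouse testes with 2 IP and 2 input samples. The authors deposited a single merged list of peaks. Its peak names contain bio2 and merged, and the number of IP samples behind it is not given in the sources used here. The submitters' processing notes name BWA 0.7.12, MACS2 2.2.7 and mm10 without saying what each was used for. The deposited columns used were the fold enrichment, which is a ratio over background, and the −log10 q. The deposited score follows the −log10 q and was not used. These are the authors' own values per peak and served to describe peaks within this list. The lowest deposited −log10 q was 1.308. The number of reads is unknown. The alternatives and their effect are given in the closing section.

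Analysis used Python 3.11.15 with numpy 2.4.6, pandas 2.3.3 and scipy 1.17.1. Each chromosome was measured from 3 Mb up to its last gene or peak. Genes came from a RefSeq table of GRCm38.p6 and were assigned by their lower coordinate. On the autosomes 328 genes with a start below 3 Mb were left out as scaffold coordinates. For each chromosome the region was set against the rest, and the 19 log2 ratios (or differences in percentage points) were tested by an exact two-sided sign-flip permutation, whose smallest p is 3.815e-06, with Benjamini-Hochberg adjustment over 7 measures. Chromosomes were the units, since neighbouring peaks are not independent. The test treats them as exchangeable samples of 1 merged list, so p-values do not cover differences between animals. Intervals on shares are exact Clopper-Pearson at 95% and cover counting error only. The tests were checked on circularly shifted peaks with and without planted changes. Planted changes in density, fold and width were returned, but without a planted change the tests of density and, more so, of summit distance passed their threshold too often, for a reason that was not tested. They are therefore also given against the median of the 5 Mb stretches of the rest.

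Named peaks and genes followed a written rule: the highest and the first peak of each chromosome, the 5 of highest fold, the 5 widest, those at the limit and 30 listed genes. The lists of germ line and of chromatin genes, the printed promoters and the chromosome 14 distances were chosen later, with values known. Members, lists and rules were all chosen with earlier results of these data known.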

Additional observations from a re-analysis of the deposited data

How the results depend on the processing

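Values are mean log2 ratios of the region over the rest unless stated. Ending the region at 13 Mb brought density (−0.53) and width (−0.11) past the threshold, as keeping the higher 50% of −log10 q did for density (−0.63), means over peaks for width (−0.14) and all annotated genes for peaks per gene (−0.35). Fold, which passed no test, changed sign with the 13 Mb end (0.0034) and with the higher 50% of −log10 q (0.0095). Comparisons with the median of the 5 Mb stretches, the next 10 Mb and the last 5 Mb, those without chromosome 14 and those of the share of genes were chosen after seeing the data. Against the median of the 5 Mb stretches, peaks per gene (−0.41) and the share at gene ends (3.87 percentage points) passed, while summit distance (0.38) no longer did. Against the next 10 Mb, density (0.25) and width (0.037) changed sign and summit distance (0.051) lost its call, as it did against the last 5 Mb (0.62). The share of genes with a gene-end summit became 33.1% at 500 bp, 57.1% at 2.5 kb, 25.4% with a fold of at least 5 and 37.6% without chromosome 19. Except where a reference set is changed by construction, the cause was not tested. Leaving out each chromosome in turn gave −0.59 to −0.39 for density, −0.15 to −0.091 for width, −0.042 to −0.0020 for fold, −0.33 to −0.21 for −log10 q, −0.24 to −0.11 for peaks per gene, 0.33 to 1.93 percentage points for gene ends and 0.61 to 0.83 for summit distance. The alternative of lengths without unknown bases needs a genome sequence and is left out. No paired analysis was possible because the list carries no value per sample, and no replicate could be left out for the same reason. Depth is unknown, so the number of weak sites below detection is too.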
